A study of Mus musculus with 16 samples.

Results

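Dbp, Tef, Hlf, Nfil3, Ciart, Noct, Usp2, Bhlhe40 and Bhlhe41 are transcripts that follow the circadian clock, and their levels were read in the livers of 16 mice. These 9 genes were listed by symbol, out of 55471 gene identifiers counted in each liver, and they were chosen by their CPM across and within the groups of these same livers. Their levels, differences and correlations are therefore given as a description. The fit of all genes gives calls for them too, which are printed only as counts beside the share of all genes and support nothing.

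Liver RNA was sequenced from 4 groups of 4 mice. Young adults were 12 weeks old and had no antibiotics. The other 3 groups were 102 weeks old: a control group without antibiotics (Aged_no_ABX) and the antibiotic groups Aged_PAM_I and Aged_PAM_II, whose exposure the series title places early in life. The labels used here give no drug, dose, strain, sex, litter, cage or hour of sampling and do not explain PAM. For the young mice 1 free-text field reads aged, and their group was taken from the other fields (title, age and experimental group). Nothing in the labels pairs the mice, and p-values measure only the spread between these samples.

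In the liver clock, the activators BMAL1 (gene Arntl), CLOCK and NPAS2 bind E-boxes and switch on their own repressors, the period, cryptochrome and REV-ERB genes. The same E-boxes drive Dbp, Tef and other outputs, and DBP, TEF and HLF then activate genes with a D-box, a site that the repressor NFIL3 also binds. Because Arntl and Dbp peak at opposite times of day in liver, the balance of such genes differs between livers taken at different hours.

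Levels are TMM-scaled CPM, the fragments of a gene out of every 1000000 assigned to genes, and each liver is 1 library. Young libraries held 36968993 to 42733282 assigned fragments and control libraries 39856490 to 47042924. The PAM I libraries held 44532527 to 48706530 and the PAM II libraries 41233838 to 52090914. Summed levels of 10 hepatocyte markers lay between 88340 and 148400 CPM with none at 0, so the tissue label was met by its defining markers. Skeletal muscle transcripts were uneven: the sum of 12 markers was 127.3 CPM in young replicate 1 and 122.9 CPM in PAM II replicate 4 and lay between 0.811 and 47.7 CPM in the other 14 libraries. Young replicate 1 also held the fewest assigned fragments (36968993). It had the fewest genes detected, 20002 against 21886 to 23644 in the other libraries, and the part of this in its levels was not tested. In bulk liver, fewer cells of a type and less RNA per cell cannot be told apart.

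The genes lie on 7 chromosomes of GRCm38. Dbp (ENSMUSG00000059824) is at chr7:45705088-45710203 on the + strand, and its gene model overlaps that of Sphk2 on the other strand. Fragments were counted by strand, but the labels do not say whether the kit marks it. Sphk2 had up to 4986 fragments per library and Dbp between 79 and 1502, and any share of Sphk2 in the Dbp counts was not tested. Noct (ENSMUSG00000023087) is at chr3:51224447-51251644 on the + strand, Nfil3 (ENSMUSG00000056749) at chr13:52967209-52981073 on the - strand and Hlf (ENSMUSG00000003949) at chr11:90336536-90390895 on the - strand. Tef (ENSMUSG00000022389) is at chr15:81802421-81826863 on the + strand and Ciart (ENSMUSG00000038550) at chr3:95878503-95882251 on the - strand. Usp2 (ENSMUSG00000032010) is at chr9:44067021-44095627 on the + strand. Bhlhe40 (ENSMUSG00000030103) is at chr6:108660629-108666925 on the + strand and Bhlhe41 (ENSMUSG00000030256) at chr6:145858243-145865558 on the - strand.

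Promoters show where the clock's sites could be read from the DNA, and 8 of the 9 genes, all but Bhlhe40, matched the RefSeq promoter table of GRCm38.p6, with 9 promoters because Tef has 2. Each window runs from 250 bases before the transcription start to 50 after it. Positions count back from the start, with -1 the last base before it. The windows were searched on both strands for the E-box CACGTG, for the D-box as TTATGTAA or TTACGTAA, and for AGGTCA, the core of the element that REV-ERB and ROR proteins bind. The E-box was in 7.15% of all 32851 promoters in the table, a D-box in 1.06% and AGGTCA in 16.3%.

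Ciart held 3 E-boxes, at -116, -58 and -44, a number reached by 29 of all promoters (0.0883%). Tef held 1 in each promoter, at -127 and -138, and Bhlhe41 held 1 at -153. These 3 genes are shown because they are the members with the letters, and Noct because its level differed most between groups while its window held none of the searched letters. Capitals mark the E-box, and each sequence reads 5′ to 3′ on the strand of its gene, with annotated exon bases left out. The Ciart stretch is chr3:95882252-95882478 (- strand), the Tef stretch chr15:81811164-81811413 (+ strand, the second promoter), the Bhlhe41 stretch chr6:145865559-145865670 (- strand) and the Noct stretch chr3:51224197-51224446 (+ strand).
Ciart: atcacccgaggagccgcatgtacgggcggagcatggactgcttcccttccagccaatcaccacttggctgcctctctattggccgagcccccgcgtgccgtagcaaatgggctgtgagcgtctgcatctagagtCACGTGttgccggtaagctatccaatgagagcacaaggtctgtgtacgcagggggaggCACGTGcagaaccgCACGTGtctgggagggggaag
Tef: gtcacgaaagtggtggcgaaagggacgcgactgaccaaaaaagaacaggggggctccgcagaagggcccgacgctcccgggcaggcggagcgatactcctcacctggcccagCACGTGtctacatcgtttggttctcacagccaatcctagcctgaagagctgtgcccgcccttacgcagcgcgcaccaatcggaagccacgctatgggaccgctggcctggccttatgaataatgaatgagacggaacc
Bhlhe41: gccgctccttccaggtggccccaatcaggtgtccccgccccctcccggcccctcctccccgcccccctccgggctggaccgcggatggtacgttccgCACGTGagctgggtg
Noct: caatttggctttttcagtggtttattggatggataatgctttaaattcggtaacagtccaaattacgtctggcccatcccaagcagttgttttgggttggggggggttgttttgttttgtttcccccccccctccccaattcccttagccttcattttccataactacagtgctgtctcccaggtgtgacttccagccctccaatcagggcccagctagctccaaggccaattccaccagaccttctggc

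The windows of Dbp, Hlf, Nfil3 and Usp2 held no E-box either, and no D-box was found in any of the 9 windows. The Usp2 window, chr9:44084670-44084969, lies inside its gene model, which starts at chr9:44067021. The stretch around that first start was not searched. AGGTCA was found in 1 window, that of Nfil3, at -12 on the other strand. A match is a stretch of letters and was not measured as a bound site, and a window without one says only that these letters are not in it.

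Compared per length of all annotated exons of a gene, as RPKM (CPM per kilobase of exon), the levels had a wide order. That length, 10658 bases for Noct, can exceed that of a single transcript, so the order depends on the annotation. The median over 16 livers was 23.6 RPKM for Nfil3, 15.6 for Bhlhe40, 7.33 for Noct, 6.01 for Tef, 5.34 for Hlf and 2.94 for Dbp. Usp2 (0.502), Ciart (0.327) and Bhlhe41 (0.110) were far lower, and Ciart and Bhlhe41 rested on 11 to 54 and 12 to 66 fragments per library. All 9 passed the filter on low counts. The ratio of the highest to the lowest liver was 108.6 for Noct and 23.7 for Dbp, and 2.15 to 8.32 for the other 7 genes, in CPM. Among the 12 aged livers alone it was 8.60 for Noct and 15.5 for Dbp, so Dbp then varied most.

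**Figure D1:**
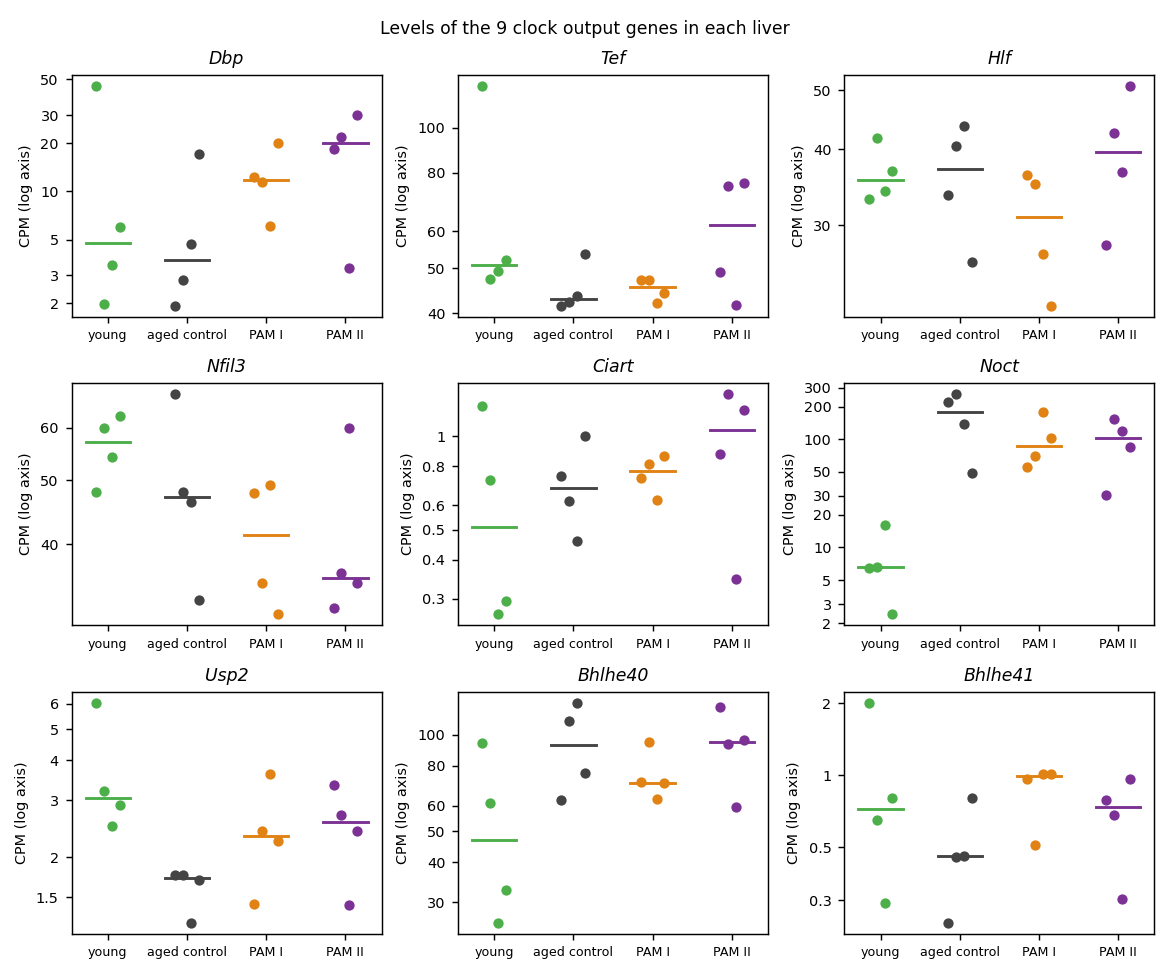
TMM-scaled CPM (log axis, 1 panel per gene) in each of the 16 livers, by group. Points are livers in the order of replicates 1 to 4, and bars are group medians. All 12 aged livers lie above the 4 young livers for Noct, and young replicate 1 stands above the other young livers for Dbp and Tef.

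Noct encodes nocturnin, a phosphatase of the nicotinamide dinucleotide NADP(H) that was first described as a rhythmic deadenylase and whose loss protects mice from fatty liver on a high-fat diet. Young livers held 6.47, 6.64, 16.1 and 2.41 CPM in replicates 1 to 4. Aged control livers held 223.6, 262, 137.4 and 48.3 CPM. PAM I livers held 54.9, 70.8, 178.7 and 103.4 CPM, and PAM II livers 30.5, 154.5, 120.6 and 85.6 CPM. The highest young liver stayed below the lowest of the 12 aged livers, and the 3 aged groups overlapped one another. Of the 9 genes only Noct showed this separation of young from all aged livers, where 2.69% of tested genes lay higher and 1.81% lower in that way.

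The mean Noct level was 167.8 ± 95.2 CPM in aged controls and 7.90 ± 5.79 CPM in young mice (SD, n = 4 each), a ratio of 21.2. The fitted log2 fold change was 4.41 ± 0.68 (SE). Leaving out any 1 of the 8 livers gave values from 4.11 to 5.02. The other aged groups had lower means than the controls, with 102 ± 55.0 CPM in PAM I and 97.8 ± 53.0 CPM in PAM II, and log2 fold changes against controls of -0.72 ± 0.59 and -0.78 ± 0.59. Without control replicate 2 these were -0.44 and -0.48. With the liver's own Arntl level as a covariate, a fit chosen after the data were seen, they were 0.030 ± 0.69 and -0.10 ± 0.67, and the value of controls against young mice was 4.27 ± 0.66. Between PAM II and PAM I the value was -0.061 ± 0.58, and its sign turned without a single liver, from -0.36 without PAM II replicate 2 to 0.37 without PAM I replicate 3. The summed level of 10 lymphocyte markers separated the same groups, with 24.9 to 42.8 CPM in young and 85.5 to 599.1 CPM in aged livers and none of the 10 at 0, and its part in the Noct difference was not tested.

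Dbp encodes the D-box activator whose liver transcript has among the deepest daily rhythms known. Young livers held 45.8, 1.97, 3.497 and 6.01 CPM in replicates 1 to 4. Aged controls held 1.94, 2.79, 4.67 and 17.2 CPM. A single liver stood high in each of these groups, and the groups overlapped. PAM I livers held 12.3, 11.46, 6.12 and 19.98 CPM, and PAM II livers 18.3, 22.03, 3.31 and 30.02 CPM. Most livers of both antibiotic groups were above the 3 lower controls, PAM II replicate 3 was among the low ones, and no pair of groups was free of overlap.

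The Dbp log2 fold change of aged controls against young mice was -1.11 ± 0.90, and it was 0.79 without young replicate 1 and -2.17 without control replicate 4. Against controls it was 0.91 ± 0.90 in PAM I (1.97 without control replicate 4) and 1.47 ± 0.91 in PAM II (2.55 without that liver). PAM II against PAM I gave 0.56 ± 0.89, or 0.24 without PAM II replicate 4 and 0.93 without PAM II replicate 3. With the Arntl covariate the PAM I and PAM II values against controls were -0.33 ± 0.55 and 0.0027 ± 0.56, and that of controls against young mice was -0.38 ± 0.50. The 2 livers with the most Dbp, young replicate 1 and PAM II replicate 4, also had the most skeletal muscle transcript. PAM II replicate 3, with a muscle sum of 47.1 CPM, had low Dbp, and PAM II replicate 1, with 1.74 CPM, had 18.3 CPM of Dbp. The part of muscle RNA in the Dbp levels was not tested.

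Tef, a D-box activator of the same family, was steadier. Its young livers held 123, 47.4, 49.3 and 52.0 CPM and its aged controls 41.6, 42.4, 43.6 and 53.5 CPM. PAM I livers lay between 42.1 and 47.2 CPM, and PAM II livers held 49.1, 74.9, 41.6 and 75.9 CPM. Young replicate 1 was the high liver here as for Dbp, and 2 of the PAM II livers stood above every other aged liver. The log2 fold change of aged controls against young mice was -0.58 ± 0.27, and -0.13 without young replicate 1. PAM II was 0.42 ± 0.27 above controls and 0.42 ± 0.27 above PAM I on the log2 scale, and PAM I differed from controls by -0.0038 ± 0.27.

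Hlf, the third D-box activator, ranged from 22.1 CPM in PAM I replicate 4 to 50.9 CPM in PAM II replicate 4. Group means were 36.5 ± 3.85 CPM in young mice, 36.0 ± 7.82 in aged controls, 30.1 ± 6.74 in PAM I and 39.5 ± 9.69 in PAM II (SD, n = 4 each). All 4 groups overlapped, and the log2 fold changes ran from -0.26 ± 0.20 for PAM I against controls to 0.39 ± 0.20 for PAM II against PAM I. Aged controls and young mice differed by -0.020 ± 0.20.

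Nfil3, the repressor at the same D-box, held 48.0, 59.9, 54.1 and 62.4 CPM in young livers and 67.4, 47.9, 46.4 and 33.0 CPM in aged controls. PAM I livers held 47.8, 34.99, 49.2 and 31.4 CPM, and PAM II livers 32.0, 36.2, 59.9 and 35.04 CPM. The young livers sat together and high, and the aged groups reached lower, with overlap throughout. PAM II replicate 3 was the high liver of its group for Nfil3 and the low one for Dbp. The log2 fold changes were -0.20 ± 0.23 for aged controls against young mice, -0.25 ± 0.23 for PAM I and -0.26 ± 0.23 for PAM II against controls, and -0.0013 ± 0.23 between the antibiotic groups.

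Ciart, Bhlhe40 and Bhlhe41 encode repressors that act back on E-boxes. Bhlhe40, the abundant one, held 94.0, 61.2, 25.9 and 32.7 CPM in young livers and 62.5, 110.6, 126.1 and 76.1 CPM in aged controls. Young replicates 3 and 4 were below every aged liver, while young replicate 1 lay among the aged ones. PAM I livers lay between 62.9 and 95.0 CPM and PAM II livers between 59.8 and 122 CPM. The log2 fold change of aged controls against young mice was 0.81 ± 0.34, and 1.23 without young replicate 1. The other comparisons of Bhlhe40 gave -0.32 ± 0.34, -0.012 ± 0.34 and 0.31 ± 0.34 for PAM I and PAM II against controls and PAM II against PAM I.

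Bhlhe41, a close relative of Bhlhe40, was scarce. It held 2.01, 0.649, 0.291 and 0.805 CPM in young livers and 0.242, 0.457, 0.460 and 0.802 CPM in aged controls. Its log2 fold change in that comparison was -0.93 ± 0.52, and -0.25 without young replicate 1, which was again the high liver. PAM I livers held 0.965, 0.513, 1.02 and 1.01 CPM, 0.84 ± 0.51 above controls on the log2 scale, and PAM II livers lay between 0.305 and 0.962 CPM, 0.48 ± 0.52 above controls.

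Ciart, also called CHRONO, a repressor of BMAL1 and CLOCK, held 1.25, 0.724, 0.267 and 0.295 CPM in young livers and 0.746, 0.617, 0.460 and 1.002 CPM in aged controls. PAM I livers lay between 0.622 and 0.863 CPM, and PAM II livers held 0.877, 1.37, 0.348 and 1.22 CPM. The groups overlapped, and the 4 log2 fold changes lay between 0.10 ± 0.47 and 0.43 ± 0.46, within 1 SE of 0. The gene model of C920021L13Rik overlaps Ciart on the other strand with up to 43 fragments per library, near the 11 to 54 of Ciart, so the Ciart levels are uncertain unless the kit marks strand.

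Usp2 encodes a deubiquitinase that removes ubiquitin from clock proteins. It held 6.04, 3.22, 2.501 and 2.90 CPM in young livers and 1.76, 1.76, 1.25 and 1.69 CPM in aged controls. Every control was below every young liver, and the log2 fold change was -1.18 ± 0.33, or -0.83 without young replicate 1. PAM I livers held 1.43, 2.42, 3.63 and 2.24 CPM and PAM II livers 3.35, 2.71, 1.41 and 2.42 CPM. Both antibiotic groups overlapped the young livers and the controls, with log2 fold changes against controls of 0.59 ± 0.33 and 0.62 ± 0.33.

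Across the 9 genes, edgeR called 1 (Noct) at an adjusted p under 0.05 between aged controls and young mice. There 3.23% of the 17046 tested genes passed (551 genes), with 1.92% of those tested higher and 1.31% lower. In the same comparison DESeq2 gave Usp2 a log2 fold change of -1.17 ± 0.34. Relative to its SE this is larger than the 0.82 ± 0.27 of the core clock gene Npas2, which DESeq2 called. The count of 1 is thus that of edgeR, and DESeq2 calls of the members are not given here. Without overlap between these groups, 1 gene (Noct) was higher and 1 (Usp2) lower, and 4.83% and 4.44% of tested genes were so. The median log2 fold change of the 9 genes was -0.20, and -0.0077 over all tested genes. These values chose the genes, and nothing is read from the counts.

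No member passed in the other 3 comparisons, and edgeR called 0 genes in each, 0% of those tested. At an unadjusted p under 0.05, 1602 genes passed for PAM I against controls, 465 for PAM II against controls and 778 for PAM II against PAM I. DESeq2 called 14, 0 and 0. No member was free of overlap, and 5.47%, 2.1% and 4.66% of tested genes were. The members' median log2 fold changes were -0.0038, 0.42 and 0.31, and those of all tested genes 0.016, 0.0057 and 0.0057. Both antibiotic groups were set against the same 4 control livers, and the controls against young mice share them too.

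**Figure D2:**
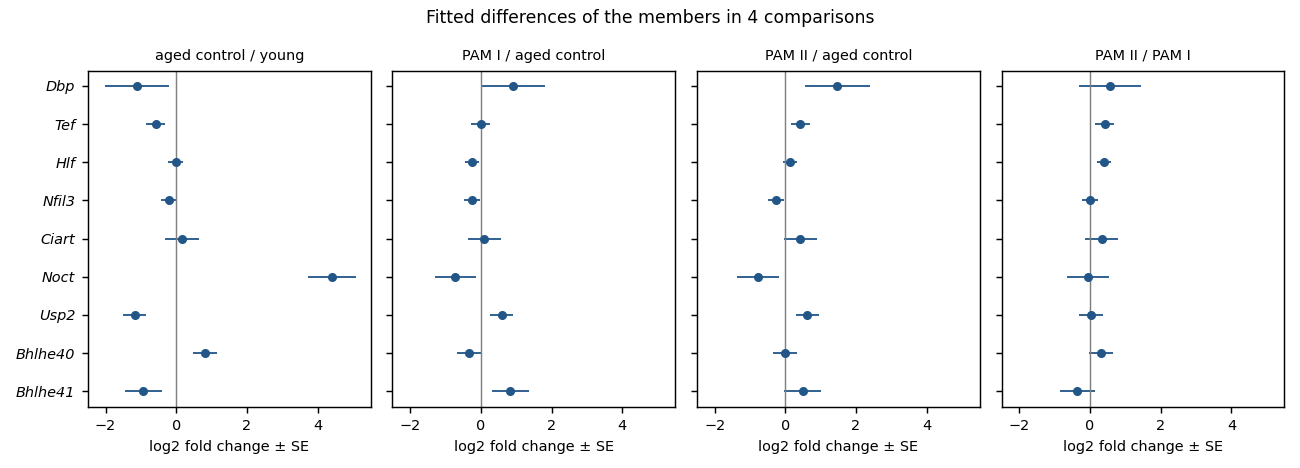
Fitted log2 fold change of each gene (points) with its standard error (bars) in 4 comparisons, from 1 fit of 16 libraries. Noct in aged controls against young mice, at 4.41, is the value farthest from 0, and the Dbp bars are the widest.

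Within a group, livers of the same age and treatment still differed, and the genes are described here by how they did so beside Arntl. For each gene the group mean of log2 CPM was subtracted, and the 16 deviations were compared with those of Arntl. The points share a library and its scaling, the genes were chosen by these within-group levels, and nothing is read from how many of them have a large r. Pearson's r with Arntl was -0.877 for Dbp (Spearman -0.847), -0.762 for Bhlhe41 (-0.806), -0.688 for Ciart (-0.682), -0.665 for Tef (-0.659) and -0.582 for Usp2 (-0.582). It was positive for Nfil3 at 0.749 (Spearman 0.753), for Hlf at 0.586 (0.474) and for Noct at 0.478 (0.429). Bhlhe40 was at -0.324 (-0.182).

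Some of these values rest on few livers. Without the 2 livers farthest from the median of the member, Dbp stayed at -0.81, Nfil3 at 0.747, Bhlhe41 at -0.696, Hlf at 0.648 and Tef at -0.553. Ciart moved to -0.486, Usp2 to -0.332, Noct to 0.18 and Bhlhe40 to 0.0199. Over the 12 aged livers alone r with Arntl was -0.831 for Dbp and 0.81 for Nfil3.

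The pattern can be read in single livers. The liver with the least Arntl was young replicate 1 (15.9 CPM), control replicate 4 (15.3), PAM I replicate 4 (13.1) and PAM II replicate 1 (14.2) in their groups. In each of these 4 livers Nfil3 was the lowest of its group. In 3 of them, all but PAM II replicate 1, Dbp was the highest of its group. The livers with most Arntl in the young and PAM II groups, young replicate 2 (32.1 CPM) and PAM II replicate 3 (26.3 CPM), had the least Dbp of their groups. In the other groups this was not so: control replicate 3 (34.6 CPM of Arntl) and PAM I replicate 1 (20.2 CPM) had the second-highest Dbp.

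**Figure D3:**
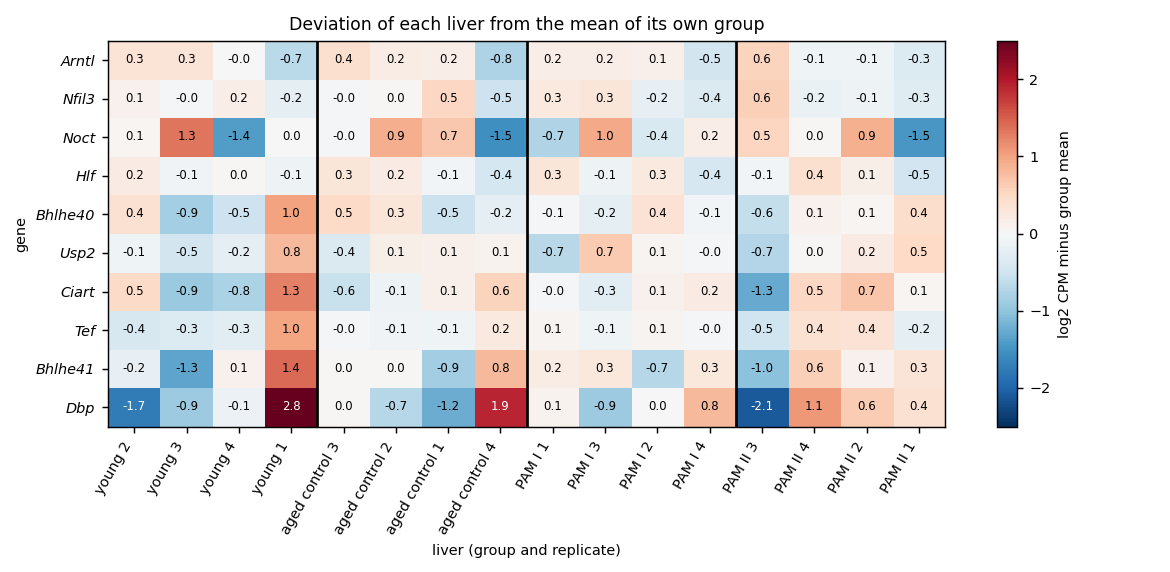
Deviation of log2 CPM from the mean of the liver's own group (color, and the printed value) for Arntl and the 9 genes, 1 column per liver, ordered by Arntl within each group. Dbp, in the bottom row, is mostly low where Arntl is high, with r = -0.877 over the 16 livers.

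Among the members themselves, Dbp deviated together with Tef (r = 0.867, Spearman 0.856), Bhlhe41 (0.815, 0.844) and Ciart (0.687, 0.665) and opposite to Nfil3 (-0.765, -0.794). Without the 2 farthest livers these were 0.742, 0.667, 0.395 and -0.758. Hlf did not follow the other D-box activators: r was -0.226 with Dbp and 0.0644 with Tef. Noct was at -0.42 with Dbp and at 0.39 with Nfil3. Bhlhe40 and Bhlhe41 had r = 0.616, and 0.238 without the 2 farthest livers.

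**Figure D4:**
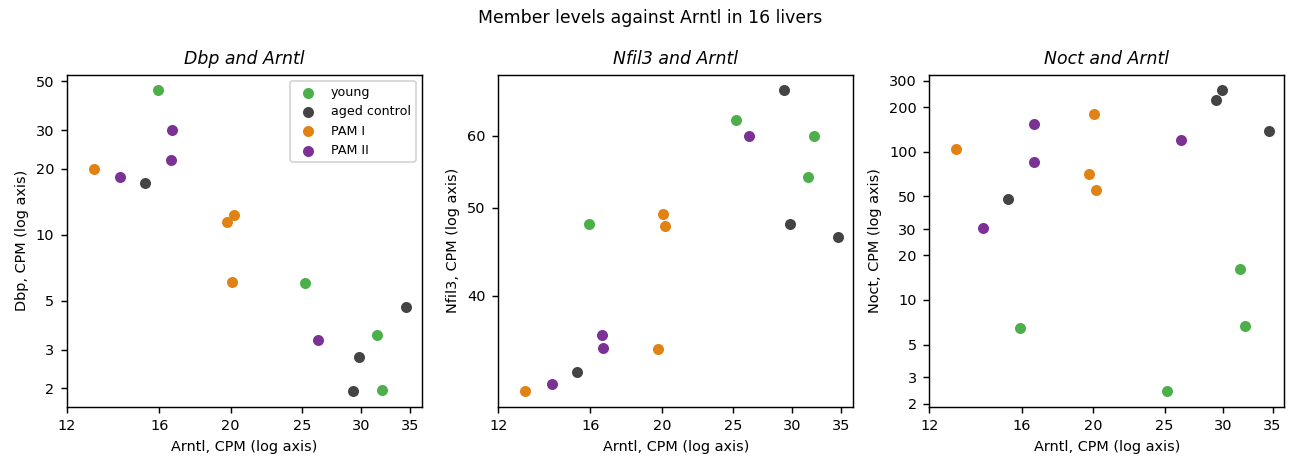
CPM of Dbp, Nfil3 and Noct against CPM of Arntl in the 16 livers (log axes), colored by group. Dbp is mostly low and Nfil3 mostly high where Arntl is high, while the young livers lie below all aged livers for Noct across the range of Arntl, from 15.9 to 32.1 CPM in the young livers.

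The genes most like 3 of the members were found by r over the same 16 deviations, among tested genes that are no members and have a mean log2 CPM of at least 1. Nearest to Dbp were Oxld1 (0.909), Tmem131l (0.891), Spata2l, Tbc1d10a and Tatdn1 (0.887 each). Opposite to Dbp were Insc (-0.911), Ppid (-0.900), Arntl (-0.877), Cxcl12 (-0.864) and Hnrnph2 (-0.854). Arntl, the gene of BMAL1, stood at rank 3 of those opposite to Dbp among the 10864 genes compared. Dbp was chosen by its levels within these same groups, so the rank is only a description and nothing is read from it.

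Nearest to Noct were Acmsd (0.857), an enzyme of tryptophan breakdown, Plec (0.851), Arl13b (0.843), Exosc10 (0.837) and Tbk1 (0.836), and opposite were Lage3 (-0.872), Prkrip1 (-0.843), Smim19 (-0.840), Olfm1 (-0.822) and Fam117a (-0.821). No core clock gene was among these 10, nor among the 10 of Nfil3 given next. Such genes are few, 15 on the list beside 10864 genes compared, so nothing is read from this. Nearest to Nfil3 were Slco2a1 (0.832), a prostaglandin transporter, Jpt2 (0.823), Nhsl1 (0.821), Med8 (0.818) and Stk40 (0.803), and opposite were Gpi1 (-0.819), Coq7 (-0.815), Bri3 (-0.809), Mtln (-0.803) and Zc3h12d (-0.799).

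The core clock genes, which are no members, were tested in the same fit. Of 15, edgeR called 0 in each of the 4 comparisons, and at an unadjusted p under 0.05 there were 1, 5, 3 and 1 in the order above. DESeq2 called 1 (Npas2) between aged controls and young mice and 0 in the others. Npas2, a partner of BMAL1, held 18.9 ± 5.76 CPM in aged controls and 10.7 ± 4.25 CPM in young mice (SD, n = 4 each), with a log2 fold change of 0.82 ± 0.26 and an adjusted p of 0.101 by edgeR. That adjusted p was 0.0328 without young replicate 2 and 0.00546 with the Arntl covariate, and 0.0419 by DESeq2. Of the 8 fits that left out 1 liver, the fit without young replicate 2 was the 1 under 0.05, and the highest adjusted p was 0.251. It was 0.102 with RLE scaling, 0.136 without the filter and 0.24 from only the 8 libraries compared. Without young replicate 1 and control replicate 4 it was 0.142.

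In that comparison Cry2 (-0.31 ± 0.16, adjusted p = 0.323), Nr1d1 (-0.43 ± 0.34, 0.523) and Csnk1d (-0.11 ± 0.091, 0.562) followed by p. Arntl itself had 27.3 ± 8.31 CPM in aged controls and 26.2 ± 7.54 CPM in young mice (log2 fold change 0.057 ± 0.26, adjusted p = 0.939). Arntl levels in these groups overlapped, at 15.3 to 34.6 CPM in controls and 15.9 to 32.1 CPM in young mice. The hour of sampling is not given, and its part in the Noct difference was not tested.

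Against controls, Npas2 lay at -0.89 ± 0.26 in PAM I (adjusted p = 0.506) and at -1.08 ± 0.26 in PAM II (adjusted p = 1), and every liver of both groups was below every control. With the Arntl covariate these were -0.40 ± 0.15 (0.895) and -0.59 ± 0.15 (0.615). Cry1, a repressor of the clock, was at -0.91 ± 0.33 (0.506) and -0.83 ± 0.33 (1), and Rora at -0.67 ± 0.24 (0.506) and -0.51 ± 0.24 (1). With the covariate Cry1 was at -0.21 ± 0.15 and -0.15 ± 0.15, and Rora at -0.24 ± 0.17 and -0.074 ± 0.17. Arntl was at -0.58 ± 0.27 in PAM I (0.524) and at -0.57 ± 0.27 in PAM II (1). The covariate itself thus had lower means in both antibiotic groups than in controls, and fits with it can take up part of a group difference. For PAM II against PAM I, Cry2 (0.39 ± 0.16), Per1 (0.89 ± 0.52) and Per3 (0.61 ± 0.45) were among the genes with the smallest p, each with an adjusted p of 0.88. None of these passed by edgeR.

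Of 13 reported targets of DBP, TEF and HLF in liver, edgeR called 6 higher and 0 lower in aged controls than in young mice, where 1.92% and 1.31% of tested genes were called. The list was written with earlier results of these data known, so its direction is not independent evidence. The median log2 fold change of the list was 1.47, and -0.0077 over all tested genes. Cyp4a14, a fatty acid hydroxylase, rose from 204.2 ± 77.8 to 1034 ± 289.9 CPM (2.34 ± 0.30, adjusted p = 0.000631), and its relative Cyp4a10 rose from 152.5 ± 58.0 to 421.9 ± 153.8 CPM (1.47 ± 0.34, adjusted p = 0.0288). Acot2 and Acot3, acyl-CoA thioesterases, rose by 1.86 ± 0.27 (adjusted p = 0.0014) and 3.01 ± 0.57 (0.0105) on the log2 scale. Cyp2a4, a steroid hydroxylase, rose from 0.303 ± 0.0772 to 12.8 ± 7.74 CPM (adjusted p = 0.00316), and Cyp2b9 was called from a summed 8 young fragments against 21394 in controls (adjusted p = 3.56e-05).

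These genes belong to families of near-identical paralogs, so the split of reads within a family is uncertain. The Cyp4a10 call was lost in 4 of the 8 fits that left out 1 liver (adjusted p up to 0.105), and Acot3 was at 0.0505 without young replicate 4. Dbp, Tef and Hlf had log2 fold changes of -1.11, -0.58 and -0.020 in the same livers. In the 3 other comparisons edgeR called 0 of the 13 (1 in each at an unadjusted p under 0.05), and DESeq2 called 1, Alas1, higher in PAM I.

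Of 15 other transcripts that cycle over the day in mouse liver, edgeR called 1 between aged controls and young mice, with 6 at an unadjusted p under 0.05. DESeq2 called 1 higher (Tubb2a) and 2 lower (Upp2 and Elovl3). Elovl3, a fatty acid elongase, fell from 619.9 ± 202.5 to 179.5 ± 76.8 CPM (-1.79 ± 0.45, adjusted p = 0.0433 by edgeR). The edgeR call was lost in all 8 fits without 1 liver, with adjusted p up to 0.133. Of 16 fasting, feeding and glucocorticoid genes edgeR called 0, with 6 at an unadjusted p under 0.05, and DESeq2 called 2, Fgf21 and Fkbp5, both higher. Neither list had a call by edgeR or DESeq2 in the other 3 comparisons, with 0 or 1 genes of each list at an unadjusted p under 0.05.

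Among marker lists, edgeR called 1 of 10 lymphocyte markers higher in aged controls than in young mice (Ighm, 2.24 ± 0.42, adjusted p = 0.0101) and 1 of 10 hepatocyte markers lower (Serpina1c, -0.98 ± 0.21, 0.0202). Of 5 adipose markers 3 (Adipoq, Plin1 and Lep) were below the filter, with up to 3 of the 5 at 0 in a library. Of the other 2, edgeR called 1 lower in that comparison (Adrb3, -1.79 ± 0.41, 0.0294), which alone is not read as fat tissue. All 10 lymphocyte markers had positive log2 fold changes there, with a median of 1.16. DESeq2 called 4 of them higher (Ighm, Nkg7, Jchain and Ptprc), 2 hepatocyte markers lower (Serpina1c and Ahsg) and Adrb3 lower, and it called Ighm higher in PAM I than in controls, where edgeR called 0 lymphocyte markers (3 at an unadjusted p under 0.05). Leaving out single livers lost the Serpina1c call in 3 of 8 fits and the Adrb3 call in 5 of 8. Of 12 muscle markers it called 0, with 6 at an unadjusted p under 0.05 and a median log2 fold change of -3.53, and DESeq2 called 0. For PAM II against controls, where the Dbp value was 1.47, the muscle median was 3.72, with 0 of 12 called by either tool and 8 at an unadjusted p under 0.05. Of 10 Kupffer cell markers edgeR called 0 in each comparison, with 1, 0, 1 and 0 at an unadjusted p under 0.05, and DESeq2 called 0. Of 8 exocrine pancreas markers 2 (Cela1 and Cela2a) passed the filter, and edgeR called 0 in each comparison, with both at an unadjusted p under 0.05 and called lower by DESeq2 in aged controls against young mice. The other 6 were below the filter, with up to 6 of the 8 at 0 in a library of each group. The DESeq2 calls of Cela1 and Cela2a are therefore not read as pancreas tissue. Control sums of the muscle markers ran from 0.811 to 14.3 CPM, with up to 6 of 12 at 0, among them Acta1, Myh4 and Pvalb, and PAM II sums from 1.74 to 122.9 CPM.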

How the data were processed

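Total RNA of frozen liver was sequenced in 16 mice, 4 per group. What the authors deposited is 1 table of unnormalized fragment counts per library. Per the submitters' processing notes the tools were Trimmomatic 0.38, HISAT2 2.1.0 and featureCounts 1.5.0-p2 with build mm10, and per the file headers paired fragments were counted over exons by gene for Ensembl release 99 of GRCm38 with strand setting 1. Whether the library kit marks strand is not given in the sources used here. Of 55471 identifiers, 327 had no symbol in the reference table, and all 123 listed symbols matched. The closest pair of libraries differed by a root mean square of 0.533 log2 CPM, so none was a copy.

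The analysis used edgeR 4.0.16 (R 4.3.3): filterByExpr by group (17046 genes kept), TMM scaling, and 1 robust quasi-likelihood model of 16 libraries with 1 mean per group (biological coefficient of variation 27.3%). Tests were two-sided, and calls needed a p under 0.05 after Benjamini-Hochberg adjustment over all tested genes. Correlations used log2 of CPM plus 0.01. The procedure was tested on simulated data. Alternatives were RLE scaling, no filter, only the 8 libraries compared, DESeq2 1.42.0 and each library left out. An Arntl covariate and a fit without young replicate 1 and control replicate 4 were added after seeing the data.

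The members and lists were chosen with earlier results of these data known. Named genes were the 9 members, every list gene called in a comparison, the 4 core clock genes of smallest p per comparison (1 gene is not reported here), and for Dbp, Noct and Nfil3 the 5 genes of highest and of lowest r. Alas1, Tubb2a, Upp2, Fgf21, Fkbp5, Nkg7, Jchain, Ptprc, Ahsg, Cela1 and Cela2a were named after their values were seen.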

Additional observations from a re-analysis of the deposited data

Results flagged for a closer look

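In 76 sets of 4 livers (19 genes in 4 groups), 8 had a highest or lowest liver whose gap to the next exceeded Dixon's 95% critical value. Chance alone passes this mark in about 1 of 20 sets of normally distributed values. The gaps were taken in CPM without a log, where levels can be skewed, so that rate need not hold for any gene. For Dbp, Tef, Nfil3, Usp2 and Bhlhe41 that rate does not hold, because these genes were chosen by their CPM within groups, and their flags are a description. It need not hold for Per3, Nr1d1 and Arntl either, because the core clock genes checked were those of smallest p in these same livers. Genes also vary together within a liver, so the sets are not independent. Young replicate 1 was such a liver for Dbp at 45.8 CPM (others 1.97 to 6.01), for Tef at 123 CPM (47.4 to 52.0) and for Per3 at 9.31 CPM (3.04 to 4.09).

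PAM II replicate 3 was apart for Nfil3 at 59.9 CPM (others 32.0 to 36.2), control replicate 3 for Usp2 at 1.25 CPM (1.69 to 1.76) and PAM I replicate 2 for Bhlhe41 at 0.513 CPM (0.965 to 1.02). PAM I replicate 4 was apart for Nr1d1 at 161 CPM (117 to 121) and for Arntl at 13.1 CPM (19.8 to 20.2).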

How the results depend on the processing

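The number of genes called between aged controls and young mice was 551, and it was 1341 with DESeq2, 198 from only the 8 libraries compared, 155 without young replicate 1 and control replicate 4, and 199 to 573 with 1 library left out (199 without young replicate 4, 271 without young replicate 1, 284 without control replicate 4). PAM I against controls gave 14 with DESeq2, and every leave-one-out fit of the 3 comparisons among aged mice gave 0.

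Noct kept its direction between aged controls and young mice in every alternative run, from 4.11 to 5.02, with 4.27 under the Arntl covariate and 4.64 without both libraries. Of the member values under alternatives, 492 moved by less than the SD between replicates and 3 by more: Dbp in aged controls against young mice (0.79) and Tef there (-0.13) without young replicate 1, and Dbp in PAM II against controls under the Arntl covariate (0.0027). This is a wide measure, with an SD of log2 CPM from 0.70 to 1.98 within groups for Dbp, so the 492 do not show stability. Dbp in PAM I against controls went from 0.91 to -0.33 under the Arntl covariate and is counted among them. Under that covariate 8 of the 36 member values changed sign, among them Ciart and Nfil3 in both antibiotic groups against controls. Nr1d1 in aged controls against young mice ran from -0.66 without control replicate 4 to 0.023 without young replicate 1, where it turned. The cause of these shifts was not tested.

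Without the 2 farthest livers r moved to 0.395 for Dbp with Ciart and, with Arntl, to -0.486 for Ciart, 0.18 for Noct, -0.332 for Usp2 and 0.0199 for Bhlhe40, which was -0.0696 in aged livers. No paired analysis was possible because the labels give no shared replicate numbers, and those used here follow accession order. At 11 to 66 fragments per library, differences in Ciart and Bhlhe41 are limited by depth.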
